A study of Rattus norvegicus with 2 samples.

Results

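The genes of glutamate transmission were examined in the lumbar spinal cord (SC, L4-L6) of rats with and without a sciatic nerve injury. They were 38 listed genes, namely the subunits of the ionotropic receptors, the metabotropic receptors, the postsynaptic scaffolds of the Dlg, Homer and Shank families, the vesicular glutamate transporters and Camk2a. A gene was counted as measured when a probe set of the array was annotated with its symbol and no other, and 31 of the 38 were, among 18171 measured genes in all. Gria2 appeared only on a probe set that also names another gene. No probe set was named for Gria1, Grid1, Grm4, Grm7, Homer1 or Camk2a in the annotation used here, and these 7 genes were not analysed. All animals were adult male Sprague-Dawley rats of 180 to 200 g. In the chronic constriction injury (CCI) group, 4 loose ligatures were placed around the left sciatic nerve, and in the Sham group the nerve was exposed without ligation. SC tissue was taken on postoperative day 10, and in each group RNA from 3 rats was combined and hybridised to 1 Affymetrix Rat Gene 2.0 ST array, so that each group is 1 pool. Values are log2 expression after robust multi-array average (RMA) normalization, and a difference is the CCI value minus the Sham value. With 1 array per group no difference has an error or a test, and precision is limited by the number of arrays.

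Glutamate is the main excitatory transmitter of the SC and carries the input of primary afferents to dorsal horn neurons. It is loaded into vesicles by vesicular transporters and opens AMPA, kainate and NMDA receptor channels, while metabotropic receptors act through G proteins. NMDA receptors admit calcium, and their activity in the dorsal horn is well known for its part in central sensitization, the lasting gain in excitability after injury. Scaffold proteins of the postsynaptic density hold these receptors at the synapse.

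A rough background level was set at the 95th percentile of 1344 genes for olfactory and vomeronasal receptors, whose known place is the nose. It was 4.44 in Sham and 4.36 in CCI. Both values of 29 of the 31 genes were above it. Grm2 was at or below it in both arrays, and Slc17a7 in Sham. Levels depend on the probes of each set and are therefore compared between the arrays only, not between genes.

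The glutamate receptor genes were mostly lower in the CCI pool than in the Sham pool, by small amounts, and 5 of the 7 NMDA subunits were lower by more than any other of the 31 measured genes. Of the 31 measured genes, 25 were lower in CCI (80.6%), against 52.4% of all genes, and 6 were higher. The median difference over the 31 was -0.12, beside -0.01 over all genes. Since genes of higher level were more often lower in CCI, the count was repeated for genes at or above the median level of all genes, 5.83. There, 19 of 24 were lower (79.2%), against 58.3% of all genes in that range. At the fold threshold of the study, 1.5, only Grin2b was lower (1 of 31, against 1.14% of all genes) and none of the 31 was higher (against 1.64%). At 1.3-fold, a threshold chosen after the values were seen, 5 of 31 were lower (16.1%, against 5.78% of all genes), and these were 5 NMDA subunits. Above the median level, 4 of 24 passed it (against 5.61%). Grin3b, at 1.32-fold lower, lay just inside this threshold (with the 99th percentile as background it has only a bound, at least 1.03-fold, which leaves 4 genes), and Gria3, at 1.24-fold, was the nearest outside it among genes above background. By its measured difference, Slc17a7 was the only gene of the 31 to be higher by more than 1.3-fold (against 5.62% of all genes), with a Sham value below background. In tissue RNA, fewer cells of a type and less RNA per cell cannot be told apart.

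**Figure D1:**
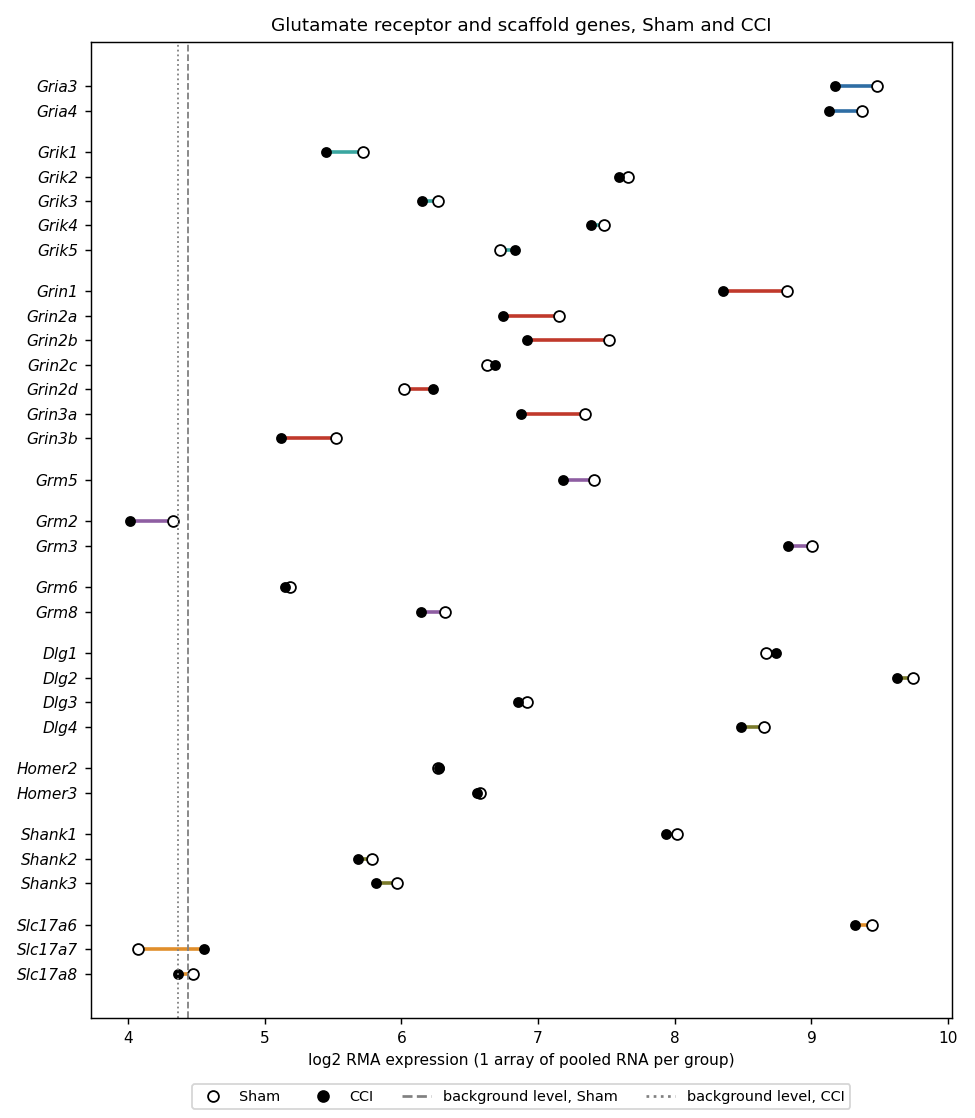
log2 RMA expression (horizontal axis) of the 31 measured genes, grouped by family, with Sham as open and CCI as filled circles, 1 array of pooled RNA each, and coloured lines joining them. Vertical lines mark the rough background level of each array (4.44 in Sham, 4.36 in CCI), and the longest lines leading left from Sham to CCI are those of 5 NMDA subunits, up to -0.60 for Grin2b.

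The NMDA receptor is built from the obligatory subunit encoded by Grin1, which binds glycine, with glutamate-binding subunits (Grin2a to Grin2d) and glycine-binding subunits of low calcium permeability (Grin3a and Grin3b). All 7 genes were measured, 5 were lower in CCI and 2 higher, with a median of -0.41. Grin2b was at 7.52 in the Sham pool and 6.92 in the CCI pool, a difference of -0.60 or 1.52-fold lower. It was the lowest of the 31 genes, and only 1.03% of all genes had a difference as low or lower. After subtraction of a lowess trend on level its difference was -0.54, short of 1.5-fold.

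The obligatory subunit was lower as well. Grin1 was at 8.82 and 8.36, or 1.38-fold lower, with 2.86% of all genes as low or lower. Grin3a was at 7.34 and 6.87, or 1.39-fold lower (2.81% of genes). The gap between the probe sets of Grin3a and Grin1 therefore hardly moved between the arrays, by -0.0014 on the log2 scale. Grin2a was at 7.15 and 6.75, or 1.33-fold lower (4.63%), and Grin3b at 5.52 and 5.12, or 1.32-fold lower (4.88%), so that 4 of the 5 lower subunits lay between -0.40 and -0.47.

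The other glutamate-binding subunits did not share this direction. Grin2c, the subunit best known from cerebellar granule cells, was at 6.62 in Sham and 6.69 in CCI, 1.04-fold higher. Grin2d, whose receptors close slowly, was at 6.02 and 6.23, or 1.16-fold higher. The gap between Grin2b and Grin2d moved by -0.81 from Sham to CCI, and that between Grin2a and Grin2c by -0.47. Such a shift shows unequal differences and not which of the pair changed.

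The promoters of 4 NMDA subunits were held in the RefSeq sequence table (GRCr8) and are shown because Grin1 and Grin3a had nearly equal differences (-0.47 each), whereas Grin2c and Grin2d were higher. Each runs 5′ to 3′ from 250 bases before the gene's start to 50 after it, and all 4 lie on the minus strand, Grin1 at chr3:28528705-28529004, Grin3a at chr5:69001509-69001808, Grin2c at chr10:101005089-101005388 and Grin2d at chr1:105481187-105481486. Capitals mark the GC box GGGCGG and the half-site TGACG of the cAMP response element, on either strand; none of these matches overlap.
Grin1: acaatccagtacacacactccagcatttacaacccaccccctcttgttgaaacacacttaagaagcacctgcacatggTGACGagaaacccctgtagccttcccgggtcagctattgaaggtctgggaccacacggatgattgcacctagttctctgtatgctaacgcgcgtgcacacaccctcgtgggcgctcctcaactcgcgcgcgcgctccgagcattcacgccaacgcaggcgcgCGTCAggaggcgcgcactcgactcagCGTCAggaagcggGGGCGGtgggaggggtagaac
Grin3a: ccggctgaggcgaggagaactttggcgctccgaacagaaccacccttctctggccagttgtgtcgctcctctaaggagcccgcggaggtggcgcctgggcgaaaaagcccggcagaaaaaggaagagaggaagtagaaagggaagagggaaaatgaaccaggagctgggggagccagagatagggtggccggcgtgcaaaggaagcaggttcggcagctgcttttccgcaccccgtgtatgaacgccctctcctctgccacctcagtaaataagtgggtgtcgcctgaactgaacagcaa
Grin2c: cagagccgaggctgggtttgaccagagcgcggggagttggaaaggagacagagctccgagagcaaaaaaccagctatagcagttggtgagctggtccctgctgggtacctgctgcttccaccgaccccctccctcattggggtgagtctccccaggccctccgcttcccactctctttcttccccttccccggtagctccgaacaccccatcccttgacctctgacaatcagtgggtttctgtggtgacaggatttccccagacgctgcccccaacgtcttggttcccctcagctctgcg
Grin2d: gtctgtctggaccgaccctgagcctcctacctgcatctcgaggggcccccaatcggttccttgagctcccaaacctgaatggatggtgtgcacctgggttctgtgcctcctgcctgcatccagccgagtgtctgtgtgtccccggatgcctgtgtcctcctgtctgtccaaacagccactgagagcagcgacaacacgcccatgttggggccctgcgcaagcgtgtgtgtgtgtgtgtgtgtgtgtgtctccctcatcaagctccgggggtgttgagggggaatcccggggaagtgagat
Grin1 held 1 GC box, close to its start, and 3 half-sites, while Grin3a, Grin2c and Grin2d held neither motif. Promoters of the lower subunits Grin2a, Grin2b and Grin3b were not held in the sequence table. Whether these motifs bear on the differences was not tested. The GC content of the 4 promoters was 58.7% to 60.7%, above the median of 51.7% over all promoters. Promoters were found for 21 of the 31 measured genes. The GC box was in 5 of the 21 (33.1% of all 33469 promoters) and the half-site in 3 (21.2%). The palindrome TTGCGCAA, a strong binding sequence of the C/EBP factors that the study follows, was in none of the 21 (0.17% of all). A match is a description of the letters, and no match says only that they are not in this window.

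AMPA receptors carry fast transmission. Of the 4 subunit genes, Gria3 and Gria4 were measured, and both were lower in CCI. Gria3 was at 9.48 in Sham and 9.17 in CCI, 1.24-fold lower. Gria4 was at 9.37 and 9.13, 1.18-fold lower. Both differences were smaller than those of the 5 lower NMDA subunits.

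Kainate receptors act on either side of the synapse and modulate release and excitability. Among their 5 genes, 4 were lower and 1 higher, with a median of -0.09. Grik1, which encodes a subunit prominent in small sensory neurons, was at 5.72 and 5.45, or 1.21-fold lower, and was the lowest of the family. Grik3 (1.09-fold), Grik4 (1.07-fold) and Grik2 (1.05-fold) were lower by less. Grik5, whose product forms channels only together with other kainate subunits, was at 6.72 and 6.83, 1.08-fold higher. The ionotropic receptors together had a median of -0.26 over 14 measured genes, 11 of them lower.

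All 5 measured metabotropic receptor genes had lower CCI values, the median difference being -0.18 and none past 1.3-fold. Grm5, the group I receptor that couples to phospholipase C, was at 7.41 and 7.18, or 1.17-fold lower. Grm3, a group II receptor found on astrocytes as well as neurons, was at 9.00 and 8.83, or 1.13-fold lower. Its group II partner Grm2 was at 4.33 and 4.01, not above background in either array, and has no fold. In group III, the presynaptic receptor gene Grm8 was at 6.32 and 6.15, or 1.13-fold lower, and Grm6, the receptor of retinal ON bipolar cells, was nearly level at 5.19 and 5.15.

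**Figure D2:**
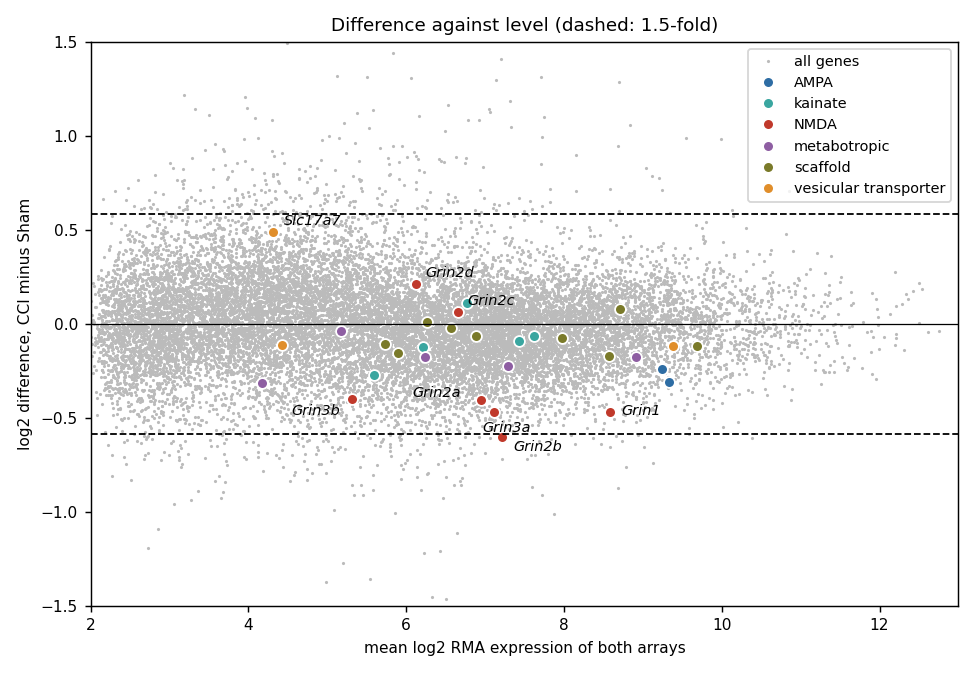
Difference between CCI and Sham (log2, vertical axis) against the mean log2 expression of both arrays (horizontal axis) for all genes (grey) and the 31 measured genes of glutamate transmission (coloured by family). The vertical axis is cut at 1.5 in both directions and dashed lines mark 1.5-fold. Of the 5 lower NMDA subunits, which are within the lowest 5% of all genes, Grin2b alone passes the line.

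By median, the scaffolds lay closer to Sham than the ionotropic receptors together, a difference that was not tested. This held against the NMDA (-0.41) and AMPA (-0.28) medians, whereas the kainate median (-0.09) was near that of the scaffolds. Over the 9 measured scaffold genes the median was -0.07, with 7 lower and 2 higher and none past 1.3-fold. In the Dlg family, whose PDZ domains bind the tails of NMDA subunits, Dlg4, which encodes the main scaffold of the postsynaptic density, was at 8.66 in Sham and 8.49 in CCI, 1.12-fold lower. Dlg2 (1.09-fold) and Dlg3 (1.05-fold) were lower by less. Dlg1, which also serves outside the synapse in epithelial polarity, was at 8.67 and 8.74, 1.06-fold higher.

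Shank proteins form the deeper layer of the density and join the Dlg complexes to Homer and actin. The 3 genes were all lower, Shank3 the most, at 5.97 and 5.82 (1.11-fold), followed by Shank2 (1.08-fold) and Shank1, at 8.01 and 7.94 (1.05-fold). Homer proteins link group I metabotropic receptors to Shank. Homer2 was at 6.27 in both arrays and Homer3 at 6.58 and 6.56, the smallest differences among the families. The sign of Homer3 turned after the lowess trend was subtracted, to 0.03.

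The vesicular transporters mark the sources of glutamate. Slc17a6 encodes the transporter of most excitatory SC neurons and was at 9.44 in Sham and 9.32 in CCI, 1.09-fold lower. Slc17a7 encodes the transporter of cortical neurons and of large afferents, whose cell bodies lie outside the SC. Its Sham value was 4.07, below background, and its CCI value 4.56, a measured difference of 0.49 but at least 1.09-fold higher only. A bound this small does not establish a difference. Slc17a8 was at 4.48 and 4.37, at the edge of background in both arrays.

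Beyond these genes, 90 of 98 listed partners of glutamate transmission were measured. Of these partners, 65 were lower in CCI (72.2%, against 52.4% of all genes and 58.3% of those at or above the median level), the median being -0.13. Past 1.5-fold, 1 was lower (1.11%, against 1.14% of all genes) and none higher, and past 1.3-fold, 10 were lower (11.1%, against 5.78%) and none higher. The lowest was Olfm2, a secreted protein of AMPA receptor complexes, at 7.18 and 6.54 (1.56-fold lower). The postsynaptic adhesion molecule Nlgn3 followed, at 8.77 and 8.24 (1.44-fold). The glutamine transporter Slc38a3 was at 8.88 and 8.38 (1.42-fold). Nrxn3, of the neurexins that bind neuroligins across the synaptic cleft, was at 8.62 and 8.14 (1.40-fold). The highest were Cnih3, an auxiliary AMPA receptor subunit, at 4.88 and 5.26 (a difference of 0.38), Slc38a5 (1.20-fold), Olfm3 (1.18-fold) and the AMPA receptor anchor Grip2 (1.15-fold). With the 99th percentile as background (5.38 in Sham and 5.47 in CCI), Cnih3 and Slc38a5 were not above it in either array.

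By role, the adhesion molecules and synapse organisers had the lowest median of the larger groups, -0.22, with 14 of 16 lower. AMPA receptor auxiliary subunits had a median of -0.13 (12 of 15 lower) and trafficking and scaffold partners -0.14 (14 of 18 lower). Neto1 (1.10-fold) and Neto2 (1.23-fold), auxiliary subunits of kainate and NMDA receptors, were lower too, as was Clptm1 (1.23-fold), which was listed with them but is known for the trafficking of GABA-A receptors. The kinases and phosphatases of the postsynapse had a median of -0.01 (7 of 13 lower), which became 0.05 after the trend was subtracted. Group I signalling genes had a median of -0.06 (7 of 12 lower), or -0.03 after the trend was subtracted. Glutamate uptake and metabolism had a median of -0.04 (8 of 13 lower), or -0.16 with the floor on level. In that group, the astrocytic transporters Slc1a2 and Slc1a3 had differences of -0.04 and 0.12, and the neuronal transporters Slc1a1 and Slc1a6, named after their values were seen, of -0.31 and 0.15.

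Lower medians were also found for other genes of synaptic transmission. Genes of GABA and glycine transmission had a median of -0.16, with 19 of 22 lower (86.4%). Of these 22, 4 were lower past 1.3-fold and 1 past 1.5-fold, Gad1. Presynaptic release genes had a median of -0.12, with 20 of 24 lower (83.3%). Of these 24, 4 were lower past 1.3-fold and 1 past 1.5-fold, the vesicle protein gene Sv2c. Of all genes, 52.4% were lower (58.3% of those at or above the median level) and 1.14% were lower past 1.5-fold. Without the NMDA subunits, the remaining 24 glutamate genes had a median of -0.11, with 20 lower (83.3%), both close to these lists. None of the 24 was lower past 1.3-fold. The NMDA median of -0.41 lay below those of these lists, and with 1 array per group this difference was not tested. The 4 inhibitory neuron markers, Gad1, Gad2, Slc6a5 and Slc32a1, which are part of the GABA and glycine list, had nearly the same median as the NMDA subunits, -0.40.

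**Figure D3:**
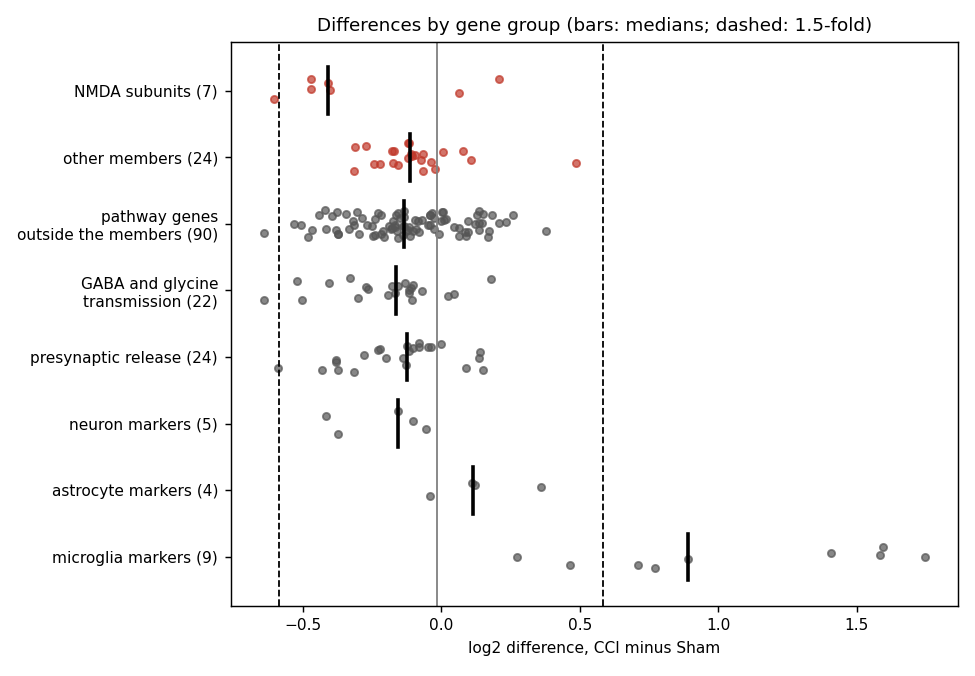
Difference between CCI and Sham (log2, horizontal axis) for each measured gene (points) of 8 groups, with the number of genes in brackets, black bars at the medians, a grey line at the median of all genes and dashed lines at 1.5-fold. The NMDA median (-0.41) lies left of those of the other plotted neuronal groups (-0.11 to -0.16), while the microglia median (0.89) lies right.

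Cell type markers differed between the pools in both directions. The 5 neuron markers were all above background and all lower in CCI (median -0.15). Among them were Rbfox3 (-0.15), Snap25 (-0.10) and Syt1 (-0.37), the latter pair being on the presynaptic list too. The log2 of the summed level of the 5 was 13.69 in Sham and 13.57 in CCI. Snap25, the brightest (13.09 and 12.98), weighs most in that sum. The 4 inhibitory neuron markers (summed level 11.01 and 10.60) and the 3 measured motor neuron markers (9.02 and 8.66) were all lower. The motor neuron median was -0.29. With the floor on level, which drops Isl1, the median of Chat and Slc5a7 alone was -0.52. All 9 microglia markers were higher, with a median of 0.89 and 7 past 1.5-fold, and a summed level of 10.96 in Sham and 11.98 in CCI. Astrocyte markers had a median of 0.12 (13.10 and 13.23) and oligodendrocyte markers 0.09. Both markers of oligodendrocyte precursors, Pdgfra (-0.45) and Cspg4 (-0.29), were lower, with a median of -0.37 and a summed level of 8.07 in Sham and 7.67 in CCI. The part of these shifts in the lower glutamate genes was not tested. Of the 31 genes, 14 had a difference below the median of the neuron markers, 5 of them NMDA subunits and 9 others (Grm2, Gria3, Grik1, Gria4, Grm5, Grm3, Grm8, Dlg4 and Shank3). Over all genes, 25.7% lay at or below the neuron marker median, or 28.3% of those at or above the median level.

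Markers of the labelled tissue were present. Neuronal, astrocytic and oligodendrocyte markers were all above background, as were the glycine transporter Slc6a5 (9.90 and 9.40) and Chat (6.78 and 6.03), which mark neurons of the SC. Of the forebrain markers, Neurod6 and Tbr1 were not above background in either array, and Emx1 (4.49 and 4.68) was just above it. Of the 5 markers of sensory ganglia, 4 were above background in both arrays, namely Prph (8.31 and 8.39), which motor neurons also express, Calca (6.70 and 6.81), Mrgprd (4.99 and 4.97) and Trpv1 (4.83 and 4.78). Scn10a was below background in Sham (4.26) and above it in CCI (4.51). With the 99th percentile as background (5.38 in Sham and 5.47 in CCI), Mrgprd, Trpv1 and Scn10a were not above it in either array. The part of ganglion RNA in these values was not tested. The Schwann cell markers Prx (5.04 and 4.97) and Pmp22 (10.50 and 10.32) were above background. So were Acta1 (5.67 and 5.83) and Ckm (5.63 and 5.65) of skeletal muscle, and Cldn5 (7.81 and 7.94) and Vwf (5.90 and 5.56) of endothelium. Prx alone of these was not above the 99th percentile in either array.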

How the data were processed

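Each of 2 arrays held RNA pooled from 3 rats. The deposited values were log2 expression values, which the authors obtained by RMA in R, a method that subtracts background, equalises the intensity distributions of the arrays and summarises the probes of a set. It hides a shift common to most genes and can understate folds at low level, and splice forms are not separated. The values were used without further scaling or pseudocount.

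Of 28879 probe sets, 18511 had exactly 1 gene symbol in the platform annotation, 575 several and 9793 none. Symbols were updated through the Entrez ID, of which 18394 matched RefSeq (GRCr8), giving 18171 genes. Where a gene had several probe sets (286 genes), that with the highest mean was kept; each measured gene of the set had 1. The build behind the annotation is not given in the sources used here. The study's P threshold cannot be applied to 2 arrays. Where the dimmer value was at or below background, the fold is a bound against the background level, and where both were, none is given.

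The genes and lists were chosen with earlier results of these data known. Named were all measured genes by family, with both values for those past 1.5-fold, the 10 largest differences and the extremes of each family, and, of the partners, the 4 furthest in each direction. The results were recomputed at 2-fold, with a floor at the median level, with a lowess trend (span 0.3), subtracted, with other choices of probe set, with platform symbols and with the 99th percentile as background. Scripts (Python 3.11.15, pandas 2.3.3, statsmodels 0.14.6) were tested on simulated data.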

Additional observations from a re-analysis of the deposited data

How the results depend on the processing

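With 1 array per group, no replicate could be left out. No paired analysis was possible because each group has 1 array. The count of genes lower by more than the threshold, 1 at 1.5-fold (Grin2b), was 0 at 2-fold and 0 after the lowess trend was subtracted, and at 1.3-fold 5 were lower and 1 higher. Relative to the median of the neuron markers, a setting added after the values were seen, 14 genes were lower and 17 higher, 0 were lower and 1 was higher past 1.5-fold (Slc17a7, with its Sham value below background), the median turned from -0.12 to 0.034 and the NMDA median was -0.25. This setting subtracts the same amount, -0.15, from every gene, so these changes follow from the subtraction and say nothing about stability. Over all genes, 25.7% lay at or below the neuron marker median. The other alternatives left these counts and medians within 1.5 times of the main ones: 19 of 24 genes were lower with the floor on level, and 24 of 31 after the trend was subtracted. Each of the 31 genes has 1 probe set, so the choice of probe set could not change its value. With the background at the 99th percentile of the receptor genes, 25 instead of 29 genes were above it in both arrays. The 4 others were Grik1, Grin3b, Grm6 and Slc17a8; Grin3b then has a bound of at least 1.03-fold, which leaves 4 genes, all NMDA subunits, lower by more than 1.3-fold.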
